A study of Mus musculus with 50 samples.

Results

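The genes described here are those that carry peptides to the cell surface on major histocompatibility complex (MHC) class I molecules: H2-K1, H2-D1, B2m, Tap1, Tap2, Tapbp, Psmb8, Psmb9 and Nlrc5, with Cd274, which encodes the checkpoint ligand PD-L1. They were chosen by gene symbol in a table of 37701 genes, and all 10 had a row of their own and passed the filter on low values, as did 16733 genes in all. The tumors came from p53R270H/+WAPCre mice, which carry a heterozygous mutant p53 allele that Cre recombinase switches on in mammary epithelium under the WAP promoter, so that leukocytes and stroma in a tumor are not the cells in which it is switched on. Female mice were 8 weeks old when injections under the skin, every other day, began and went on until a tumor reached 1 cm3, and the tumor was taken 24 h after the last injection. The 5 groups of 10 tumors, each tumor from its own mouse, received vehicle, insulin, glargine, X10 or IGF1. Glargine is a long-acting insulin analogue, X10 an analogue with raised affinity for the receptor of IGF1, and IGF1 a growth factor related to insulin. The doses were not in the labels, the vehicle tumors are titled as untreated there (Untreated_161, for example), and the study chose tumors with an EMT-like (mesenchymal) appearance and a latency near the group median. Expression is given as RPKM, reads per kilobase of gene length scaled to library size.

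Class I molecules consist of a polymorphic heavy chain, such as the products of H2-K1 and H2-D1, and the invariant light chain beta-2-microglobulin, the product of B2m. The immunoproteasome, with the inducible catalytic subunits encoded by Psmb8 and Psmb9, cuts cytosolic proteins into peptides, the transporter encoded by Tap1 and Tap2 moves these into the endoplasmic reticulum, and tapasin, encoded by Tapbp, bridges the transporter and the heavy chain while peptide is loaded. NLRC5 is a transactivator that acts on class I promoters, and interferon-gamma raises the expression of the whole pathway and of Cd274. PD-L1 engages the receptor PD-1 on T cells and restrains them. Leukocytes, stroma and tumor cells can all express these genes, and in bulk tissue fewer cells of a type and less RNA per cell cannot be told apart.

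Library size, recovered from the steps between RPKM values, lay between 26.7 and 51.9 M reads (median 40.9). No correlation of a member with it passed the threshold (r between -0.21 and 0.15, smallest adjusted p = 0.906, permutation test over 50 tumors). The labelled tissue was checked by marker genes. The summed level of 10 mesenchymal and stromal genes was 5465 to 39511 RPKM, and that of 11 epithelial genes was 15.3 to 10779 RPKM with a median of 318, so that epithelial transcripts were low in most tumors and high in a few. Untreated_174 had the highest epithelial sum of the 50 tumors. Leukocyte genes were found in every tumor, with a summed level of 677 to 2753 RPKM over 10 pan-leukocyte genes. The closest pair of tumors, insulin_21 and glargine_70, had a correlation of 0.982 against a median of 0.935 over pairs, and no tumor was counted as a repeat of another.

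Of the 10 genes, 7 lie on mouse chromosome 17, in the order Tapbp, H2-K1, Psmb9, Tap1, Psmb8, Tap2 and H2-D1. In GENCODE M21 (GRCm38), Psmb9 spans chr17:34181987-34187764 on the minus strand and Tap1 chr17:34187553-34197225 on the plus strand, and they overlap by 212 bases. Psmb8 (chr17:34197721-34201454) and Tap2 (chr17:34203527-34216321) follow, with Tapbp at chr17:33915899-33929292, H2-K1 at chr17:33996017-34000347 and H2-D1 at chr17:35262730-35267499. B2m lies at chr2:122147686-122153083, Nlrc5 at chr8:94434356-94527272 and Cd274 at chr19:29367455-29388095. All 10 are annotated as protein coding.

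Promoters are shown because members of the pathway moved together, and because class I promoters carry a known module of elements. In that module an interferon response element lies upstream of an X2 box, a CRE-like site, and of a Y box, which NF-Y binds. RefSeq promoter windows (GRCm38.p6) were found for 8 of the 10 members, all but Tap2 and Nlrc5. The 250 bases before each start were searched on both strands for AANNGAAA (the core of an interferon regulatory factor site), TGACG (X2), CCAAT (Y) and the kappa B site GGGATTCCC. The bases before the H2-K1 start (chr17:34000348-34000597, minus strand) and before the B2m start (chr2:122147437-122147685, plus strand) follow, 5′ to 3′, with every match in capitals.
H2-K1: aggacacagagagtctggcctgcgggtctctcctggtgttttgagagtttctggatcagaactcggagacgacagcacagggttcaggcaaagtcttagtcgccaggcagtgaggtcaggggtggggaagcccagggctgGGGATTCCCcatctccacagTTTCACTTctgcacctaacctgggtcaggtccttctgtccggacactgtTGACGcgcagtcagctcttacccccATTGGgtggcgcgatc
B2m: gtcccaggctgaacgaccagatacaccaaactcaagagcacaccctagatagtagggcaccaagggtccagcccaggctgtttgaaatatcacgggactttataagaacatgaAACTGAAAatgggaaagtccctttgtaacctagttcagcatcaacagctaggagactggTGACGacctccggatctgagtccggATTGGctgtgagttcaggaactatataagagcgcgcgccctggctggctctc

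The H2-K1 and H2-D1 promoters held all 4 motifs and were identical at 87.9% of 190 aligned bases, with a shared run of 47 bases that holds the kappa B letters. These letters occur in 0.301% of the 32851 RefSeq promoters. B2m held the other 3 motifs, and its longest run of bases shared with either heavy chain promoter was 8. In H2-K1, H2-D1 and B2m the X2 letters were followed, 25 bases further on the same strand, by ATTGG, the Y box read in reverse. With 10 to 30 bases allowed between the letters, the arrangement was found in 211 of the 32851 promoter windows (0.642%) and in 4 of the 9 member windows, H2-K1 having a pair of overlapping windows. The exact spacing, read from these members, occurs in 30 windows (0.0913%). The 30 bases from the X2 letters on are shown for these 3 genes and for Tap1, with X2 and Y in capitals.
H2-K1: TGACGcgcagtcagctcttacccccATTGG
H2-D1: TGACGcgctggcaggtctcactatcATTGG
B2m: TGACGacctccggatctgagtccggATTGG
Tap1: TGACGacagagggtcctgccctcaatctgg
These lie at chr17:34000359-34000388 (minus strand), chr17:35262993-35263022, chr2:122147609-122147638 and chr17:34187470-34187499 (plus strand), 41, 101, 78 and 86 bases before the RefSeq start. The H2-D1 stretch lies in the first exon of a longer GENCODE transcript of H2-D1, and the Tap1 stretch in the first exon of a longer transcript of Psmb9. Tap1 and Psmb9 are divergent genes whose RefSeq starts are 225 bases apart. Taken singly, AANNGAAA occurs in 21.3%, TGACG in 17.8% and CCAAT in 33.8% of all promoters. A match of these letters is not evidence of binding.

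The heavy and light chains were among the most abundant transcripts of the pathway. H2-D1 had a mean of 3406 RPKM, B2m of 1293, H2-K1 of 957 and Tapbp of 453, while Nlrc5 had a mean of 18.8 and Cd274 of 2.99. The order of levels between genes depends on the length that was used. From the steps between values, the authors' lengths were 378 bases for Tap2, 561 for H2-D1 and 649 for Tapbp, equal to the median length of the annotated transcripts, whereas the summed exons of Tap2 span 3781 bases. Tap1 and Tap2, whose products pair in the transporter, thus had means of 23.3 and 144 RPKM but nearly equal median reads per tumor (1937 and 1970). With summed exon length in place of that length, the median RPKM was 1207 for B2m, 653 for H2-D1, 249 for H2-K1, 75.1 for Tapbp and 24.0 for Psmb8. On the same scale it was 12.4 for Tap2, 8.61 for Tap1, 8.25 for Psmb9, 3.71 for Nlrc5 and 2.57 for Cd274. The ranges over tumors overlapped between each gene and the next in this order. Comparisons of a gene between tumors do not depend on length.

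Levels of the pathway differed widely between tumors. Nlrc5 ranged from 1.49 RPKM in Untreated_161 to 53.8 RPKM in Untreated_186, a 36.1-fold range, and the SD of its log2 level (1.16) was above that of 95.1% of the tested genes. H2-K1 ranged 13.9-fold, Psmb9 12.2-fold, Cd274 10.4-fold, H2-D1 9.92-fold and Tap1 9.90-fold. B2m (6.83-fold), Psmb8 (5.96-fold), Tap2 (5.59-fold) and Tapbp (4.59-fold) varied least among the members. The median SD of log2(RPKM + 0.5) was 0.68 over the members and 0.42 over all tested genes.

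The same few tumors stood at the ends of several genes. Untreated_161 was lowest of the 50 tumors for 5 members, with 166 RPKM of H2-K1, 835 of H2-D1, 396 of B2m, 13.8 of Psmb9 and 1.49 of Nlrc5. In contrast, its Cd274 level of 3.50 RPKM was above the median over tumors of 2.57. Its summed levels of pan-leukocyte (677 RPKM), T and NK cell (11.6 RPKM), macrophage (312 RPKM) and class II genes (133 RPKM) were also the lowest of the 50. Counted from the lowest, its epithelial sum (1564 RPKM) had rank 45. Its interferon-gamma response sum (65.0 RPKM) had rank 4 and its type I interferon response sum (311 RPKM) rank 28. Untreated_186 was highest for 5 members (Tap1, Tapbp, Psmb8, Psmb9 and Nlrc5) and among the 5 highest for all 10, and its summed levels of interferon-gamma response genes (1165 RPKM) and type I interferon response genes (2348 RPKM) were the highest of the 50. Tumor insulin_9 was highest for H2-K1, H2-D1 and B2m and had the highest pan-leukocyte sum (2753 RPKM). The part of leukocyte content in these extremes was not tested.

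**Figure D1:**
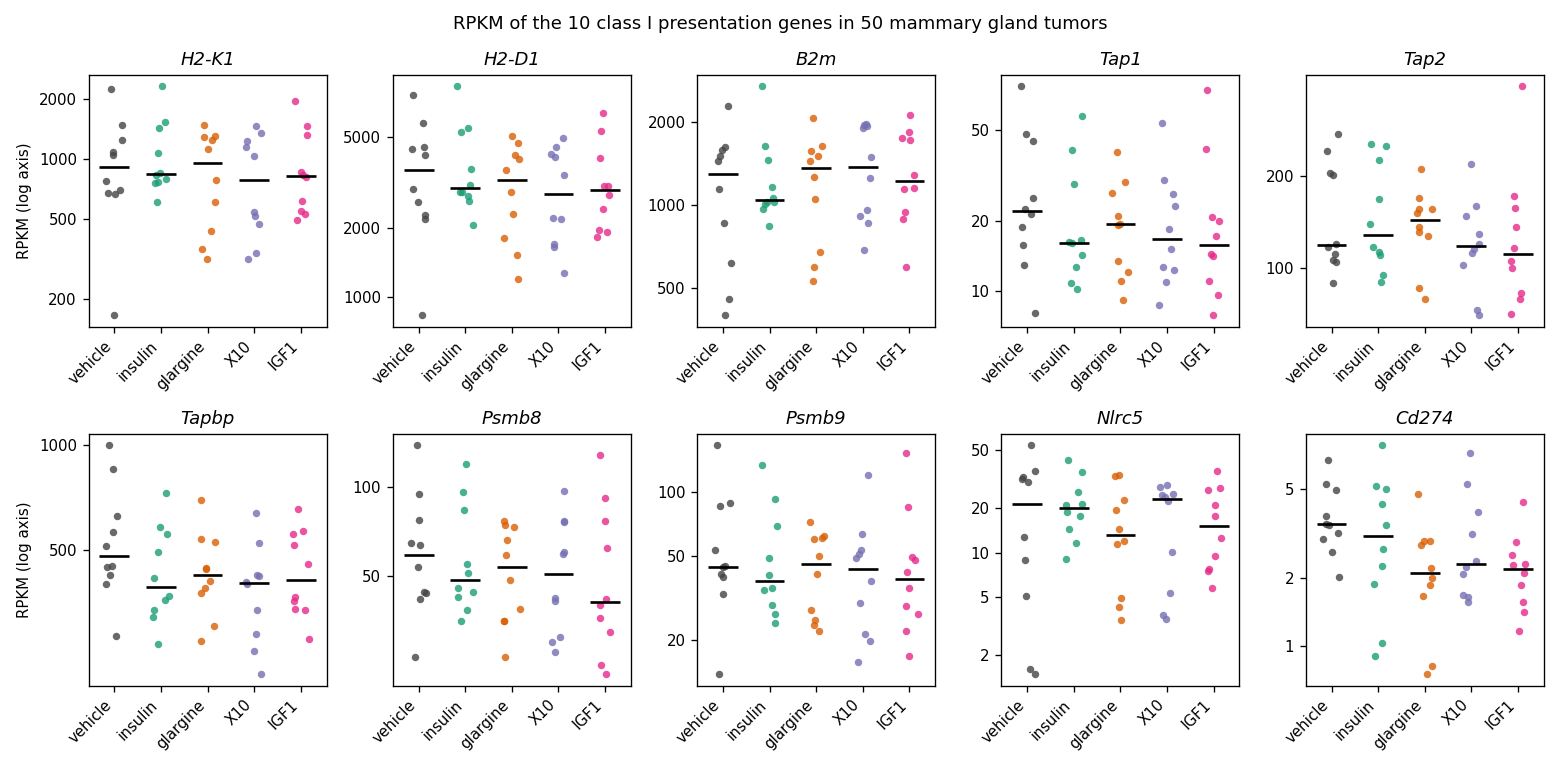
RPKM (log axis) of each of the 10 genes in the 5 treatment groups. Points are single tumors (10 per group) and bars are group medians. The groups overlap for every gene, and the lowest Nlrc5 values, 1.49 and 1.62 RPKM, are both vehicle tumors.

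The study asked how chronic exposure to insulin-like compounds shapes the tumors, and each treatment was first compared with vehicle. None of the 10 genes passed the threshold in any of these 4 comparisons (limma, Benjamini-Hochberg adjusted p under 0.05 over 16733 genes). With insulin 0 of 10 members were called, with 0.0% of all tested genes called, and with glargine 0 of 10 against 0.0%. With X10 0 of 10 were called against 0.0657% of all genes, and with IGF1 0 of 10 against 0.00598%. At an unadjusted p under 0.05, 0 members differed with insulin (11.1% of all genes), 1 with glargine (6.23%), 1 with X10 (11.0%) and 1 with IGF1 (8.84%). Of the 10 members, 6 were lower than vehicle with insulin (45.5% of all tested genes), 9 with glargine (45.9%), 8 with X10 (55.6%) and 7 with IGF1 (46.6%). The median log2 difference over the members was -0.03 with insulin, -0.21 with glargine, -0.27 with X10 and -0.26 with IGF1, where the median over all tested genes was 0.03, 0.02, -0.03 and 0.02. With the pan-leukocyte mean of each tumor as a covariate, 0 of 10 were called again, and more members had an unadjusted p under 0.05, all of them lower. They were 4 with insulin (5.56% of all tested genes), 4 with glargine (3.46%), 5 with X10 (9.22%) and 6 with IGF1 (5.09%), among them Tap1, Tapbp and Psmb9 in each comparison. The pan-leukocyte genes themselves had a median log2 difference from vehicle of 0.41 with insulin, 0.16 with glargine, 0.17 with X10 and 0.21 with IGF1. All members correlated positively with that list across tumors, so that adjusting for it lowers their differences from vehicle. The smallest adjusted p of a member with the covariate was 0.124, for Tapbp with X10 (limma). These comparisons share the vehicle tumors, and the members are correlated with each other.

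For the heavy chains no difference from vehicle passed the threshold. The 95% intervals of H2-K1 reached from -0.92 (X10) to 0.95 (insulin), so that similar levels are not shown either. H2-K1 was between 166 and 2238 RPKM in vehicle tumors (median 912), between 608 and 2305 with insulin (median 842) and between 316 and 1475 with glargine (median 958). With X10 it was between 318 and 1466 (median 791) and with IGF1 between 499 and 1947 (median 821). Every treatment group lay within the vehicle range but for the highest insulin tumor. H2-K1 differed from vehicle by 0.25 ± 0.35 (SE) on the log2 scale with insulin, by -0.12 ± 0.35 with glargine, by -0.22 ± 0.35 with X10 and by 0.00 ± 0.35 with IGF1. Single vehicle tumors moved these values. Without Untreated_161 they were -0.01, -0.38, -0.48 and -0.26 in the same order, and without Untreated_186 0.40, 0.03, -0.06 and 0.16. H2-D1 differed by 0.15, -0.19, -0.23 and -0.10 in the same order, each with an SE of 0.31, and the lowest bound of a 95% interval was -0.86, for X10. Without Untreated_161 these were -0.07, -0.41, -0.45 and -0.32, and without Untreated_186 0.29, -0.05, -0.10 and 0.04. With the pan-leukocyte covariate H2-K1 differed by -0.23, -0.26, -0.45 and -0.24, and H2-D1 by -0.27, -0.31, -0.44 and -0.32.

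B2m was the member with a higher mean than vehicle in all 4 treated groups, and none of these differences passed the test. Without Untreated_161 the glargine difference was -0.03 and the X10 difference 0.18, and without Untreated_186 the latter was 0.46. It was between 396 and 2292 RPKM in vehicle tumors (median 1299), and the group medians were 1048 with insulin, 1360 with glargine, 1375 with X10 and 1223 with IGF1. The spread was wide in every group. The largest difference was 0.33 ± 0.28 (SE) with X10 (95% interval -0.24 to 0.90, adjusted p = 0.694, limma).

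For the transporter, Tap1 had a median of 22.2 RPKM in vehicle tumors (8.01 to 77.2) and of 16.2 with insulin (10.1 to 57.6), 19.4 with glargine (9.11 to 40.0), 16.8 with X10 (8.66 to 53.4) and 15.9 with IGF1 (7.80 to 74.7). Its log2 difference from vehicle was between -0.40 and -0.34 with an SE of 0.37. Without Untreated_186 it was -0.15 with insulin, -0.20 with glargine, -0.20 with X10 and -0.21 with IGF1. Without Untreated_161 it was -0.56 with glargine and with X10, without insulin_9 it was -0.51 with insulin, and without IGF1_158 it was -0.62 with IGF1. With the pan-leukocyte covariate it was -0.85 (unadjusted p = 0.00338, adjusted p = 0.327, limma), -0.54, -0.64 and -0.66 in the same order. The largest difference of Tap2 was -0.29 ± 0.25 (SE) with X10 (adjusted p = 0.684, limma), which was -0.47 with the pan-leukocyte covariate and -0.19 without Untreated_186. With IGF1 it was -0.23, and -0.42 without IGF1_158. Its highest value, 391 RPKM in IGF1_158, was far above the next IGF1 tumor at 172 RPKM. That tumor had the highest summed level of macrophage (3844 RPKM) and class II genes (12639 RPKM) of the 50.

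Tapbp came closest to a difference among the antigen loading genes. It was between 281 and 1002 RPKM in vehicle tumors (median 480), between 268 and 727 with insulin (median 390), between 272 and 694 with glargine (median 423), between 218 and 637 with X10 (median 401) and between 276 and 656 with IGF1 (median 410). The highest 2 values of the 50, 1002 and 853 RPKM, were Untreated_186 and Untreated_174, and the groups overlapped. X10 tumors differed from vehicle by -0.48 ± 0.20 (SE), with an unadjusted p = 0.0199 and an adjusted p = 0.367 (limma). With insulin, glargine and IGF1 the difference was -0.30, -0.30 and -0.29. Without Untreated_186 the differences with insulin, glargine, X10 and IGF1 were -0.19, -0.19, -0.38 and -0.18. In the same order they were -0.40, -0.40, -0.58 and -0.39 without Untreated_161, and -0.55, -0.37, -0.60 and -0.42 with the pan-leukocyte covariate.

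Cd274 was the other member with an unadjusted p under 0.05 against vehicle. It was between 2.03 and 6.70 RPKM in vehicle tumors (median 3.48), between 0.903 and 7.82 with insulin (median 3.08), between 0.751 and 4.72 with glargine (median 2.11), between 1.58 and 7.25 with X10 (median 2.31) and between 1.17 and 4.37 with IGF1 (median 2.21). The groups overlapped, and vehicle had the highest median. Glargine tumors differed from vehicle by -0.70 ± 0.27 (SE, unadjusted p = 0.0127, adjusted p = 0.789, limma) and IGF1 tumors by -0.66 ± 0.27 (unadjusted p = 0.0196, adjusted p = 0.450, limma). The level rested on a median of 393 reads per tumor, the fewest of the members. In a test of any difference among the 5 groups, Cd274 had the smallest adjusted p of the members, 0.431 (limma F-test), and 0 of 10 members were called against 0.102% of all tested genes.

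Nlrc5 was too variable for a treatment difference of moderate size to be seen. It was between 1.49 and 53.8 RPKM in vehicle tumors (median 21.5), between 9.04 and 42.5 with insulin (median 20.1), between 3.47 and 33.9 with glargine (median 13.1), between 3.52 and 29.0 with X10 (median 23.2) and between 5.73 and 35.8 with IGF1 (median 15.1). The 2 lowest values of all were vehicle tumors, 1.49 RPKM in Untreated_161 and 1.62 RPKM in Untreated_174. With insulin the log2 difference was 0.60 with a 95% interval from -0.43 to 1.62. Without Untreated_161 it was 0.29, without Untreated_186 0.82 and with the pan-leukocyte covariate 0.13, and none of these passed the threshold.

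**Figure D2:**
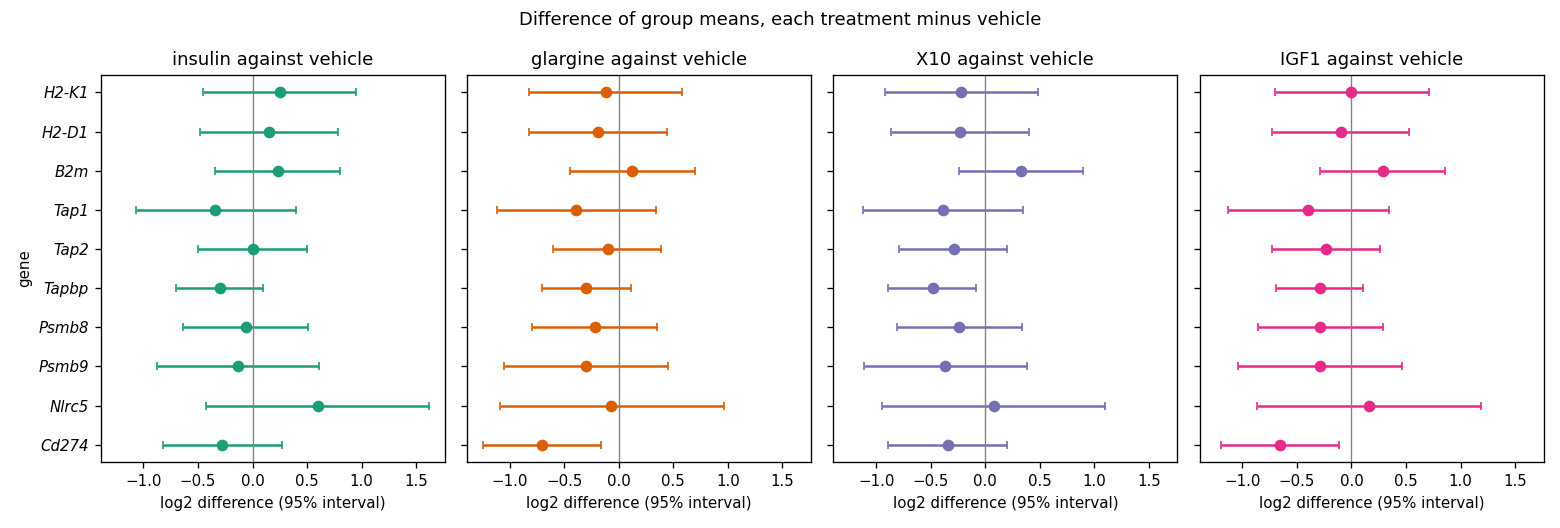
Log2 difference of group means from vehicle on the log2(RPKM + 0.5) scale for each gene, with 95% intervals from limma (10 tumors per group). Most intervals include 0. Those of Tapbp with X10 and of Cd274 with glargine and IGF1 do not, and none passed adjustment over all genes.

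The study also set the 20 X10 and IGF1 tumors, whose compounds strongly activate the IGF1 receptor, against the 30 others. Of the 10 members 0 were called, against 0.155% of all tested genes (limma), and 0 had an unadjusted p under 0.05 (10.5% of all genes). The median log2 difference over members was -0.16 and 9 of 10 were lower, where 56.4% of all tested genes were lower. The largest difference was that of Tap2, -0.23 ± 0.16 (SE, 95% interval -0.55 to 0.09).

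Between the compounds themselves, 3 pairs were compared. Glargine against insulin called 0 of 10 members against 0.0% of all genes, X10 against insulin 0 of 10 against 0.102%, and IGF1 against X10 0 of 10 against 0.0% (limma). No member had an unadjusted p under 0.05 in these pairs, where 3.96%, 11.3% and 11.7% of all tested genes did. With glargine 9 of 10 members were lower than with insulin (51.7% of all genes), with X10 9 of 10 were lower than with insulin (61.4%), and with IGF1 4 of 10 were lower than with X10 (41.7%). For H2-K1, X10 differed from insulin by -0.47 ± 0.35 (SE, 95% interval -1.17 to 0.23), and for Nlrc5 glargine differed from insulin by -0.66 ± 0.51 (95% interval -1.69 to 0.37). With IGF1 against X10 the member with the smallest p was Cd274, at -0.31 (adjusted p = 0.652, limma). These intervals leave room for differences of over 2-fold, so that a missed threshold does not show the compounds to act alike.

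The inducible immunoproteasome subunits were set against the constitutive subunits they replace, each level being per the authors' gene length, so that the ratios are comparable between tumors rather than in absolute terms. The log2 ratio of Psmb8 to Psmb5 was -0.17 ± 0.61 (SD, n = 10) in vehicle tumors, 0.18 ± 0.66 with insulin, -0.05 ± 0.74 with glargine, -0.12 ± 0.63 with X10 and -0.40 ± 0.88 with IGF1. With insulin the constitutive partner Psmb5 itself differed from vehicle by -0.42 (unadjusted p = 0.0143, adjusted p = 0.361, limma) and Psmb8 by -0.06. The Psmb8 value was -0.49 with the pan-leukocyte covariate and 0.07 without Untreated_186. The ratio of Psmb9 to Psmb6 was -1.34 ± 0.92 in vehicle tumors and between -1.63 and -1.32 in the treated groups. That of Psmb10 to Psmb7 was -1.77 ± 0.91 in vehicle tumors and between -1.82 and -1.58 in the treated groups. None of 15 two-sided permutation tests of the difference in means passed the threshold (smallest unadjusted p = 0.224, adjusted p = 0.988). Psmb8 itself had medians of 58.7 RPKM in vehicle tumors (26.6 to 139), 48.3 with insulin (35.1 to 119), 53.8 with glargine (26.7 to 76.7), 50.8 with X10 (27.7 to 96.8) and 40.9 with IGF1 (23.3 to 128.4). Psmb9 had medians of 44.4 RPKM in vehicle tumors (13.8 to 168), 38.1 with insulin (23.9 to 134.9), 45.6 with glargine (22.2 to 72.8), 43.5 with X10 (15.7 to 121) and 38.8 with IGF1 (16.7 to 153). For both genes the glargine tumors had the lowest maximum, and all groups overlapped.

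Lists of related genes were counted in the same fit. None of 17 other class I heavy chain genes was called in any comparison, nor any of 7 chaperone and trimming genes (among them Calr, Canx, Pdia3 and Erap1), 5 immunoproteasome and PA28 genes, 19 transactivator and interferon signalling genes, 13 checkpoint genes or 9 class II genes (limma). Of the 17 heavy chain genes, 13 were higher and 4 lower with insulin than with vehicle (median log2 difference 0.23), while 15 were lower with glargine (-0.22), 13 with X10 (-0.25) and 15 with IGF1 (-0.09). The chaperone list had medians between -0.09 and 0.13 in these comparisons and the immunoproteasome and PA28 list between -0.22 and -0.03. Calr, which encodes the chaperone calreticulin, had a mean of 1084 RPKM and an SD of log2 of 0.22, narrower than any member. With insulin 45.5% of all tested genes had a lower mean than vehicle, with glargine 45.9%, with X10 55.6% and with IGF1 46.6%. Of 20 type I interferon response genes, all 20 had a lower mean than vehicle in each of the 4 treated groups. With an unadjusted p under 0.05, 14 were lower with insulin (5.17% of all tested genes), 9 with glargine (2.92%), 12 with X10 (8.25%) and 4 with IGF1 (4.34%). Their median log2 difference from vehicle was -1.27 with insulin, -0.89 with glargine, -1.03 with X10 and -0.64 with IGF1, and their smallest adjusted p in these comparisons was 0.286. For 17 interferon-gamma response genes the medians were -0.64, -0.65, -0.58 and -0.51 and the smallest adjusted p was 0.417. No cell type marker was called in the same comparisons. All 9 macrophage genes had a higher mean than vehicle in each treated group (medians 0.68, 0.47, 0.35 and 0.77), and the 11 epithelial genes had medians of -1.46, -0.39, -0.49 and -2.18, with all 11 lower with insulin and with IGF1. At an unadjusted p under 0.05, 5, 1, 0 and 8 epithelial genes were lower with insulin, glargine, X10 and IGF1 (the shares of all tested genes being those given for the interferon list). In the same order 5, 2, 2 and 4 macrophage genes were higher, where 5.98%, 3.31%, 2.75% and 4.49% of all tested genes were. The 10 pan-leukocyte genes had medians of 0.41, 0.16, 0.17 and 0.21, and 4, 0, 0 and 0 were higher at that p. The 17 T and NK cell genes had medians of 0.45, -0.07, 0.08 and 0.03, and 1, 0, 0 and 0 were higher. The same shares of all tested genes apply. The part of cell type content in the interferon lists was not tested. Genes of a list can vary together between tumors, so that these counts are not counts of independent results. The vehicle tumors are shared by these comparisons, and Untreated_186 had the highest summed level of both interferon lists, the part of which in these values was not tested.

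Across tumors the members rose and fell together. Over the 50 tumors, Pearson r of log2(RPKM + 0.5) was positive for all 45 pairs of members, with a median of 0.68 (0.20 to 0.98), where the median over all pairs of tested genes was 0.02. After adjustment over the 45 pairs, 42 were under 0.05 (two-sided permutation test, 100000 resamples) and 43 by Spearman's rho. The 42 pairs were those with r of at least 0.28, which 14.5% of all pairs of tested genes reached. With values centred within treatment groups the median r was 0.70, and without the 2 tumors farthest from the median it was 0.67. H2-K1 and H2-D1 had the highest r of 0.98 (rho 0.97), Tap1 and the divergent gene Psmb9 had 0.95 (rho 0.95), and Psmb8 and Psmb9 had 0.94 (rho 0.94). Without the 2 tumors farthest from the median of the first gene these were 0.98, 0.94 and 0.93. Each of these had an adjusted p = 1.55e-05, set by the smallest p the resampling allows. H2-K1 and H2-D1 are near-identical in part, and 8.79% of the 50-base stretches of the longest coding H2-K1 transcript and 14.3% of those of H2-D1 occur in transcripts of other genes. GRCm38 holds the C57BL/6J sequence of these polymorphic genes, and how alleles of this mouse strain affect their counts was not tested.

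Nlrc5 tracked the heavy and light chains more closely than Tap2 and Tapbp. Its r was 0.91 with B2m (95% interval 0.84 to 0.95, rho 0.87, 0.88 without the 2 farthest tumors), 0.84 with H2-K1 and 0.83 with H2-D1. With Tap1 it was 0.68, with Psmb9 0.67 and with Psmb8 0.58. With Tap2 it was 0.38 (0.12 to 0.60, rho 0.40, adjusted p = 0.00793 by permutation test, 0.33 without the 2 farthest tumors) and with Tapbp 0.29 (0.02 to 0.53, rho 0.39, adjusted p = 0.0429 by permutation test, 0.40 without the 2 farthest tumors). The B2m interval did not overlap those of Tap2 and Tapbp, and the difference between these correlations was not tested.

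**Figure D3:**
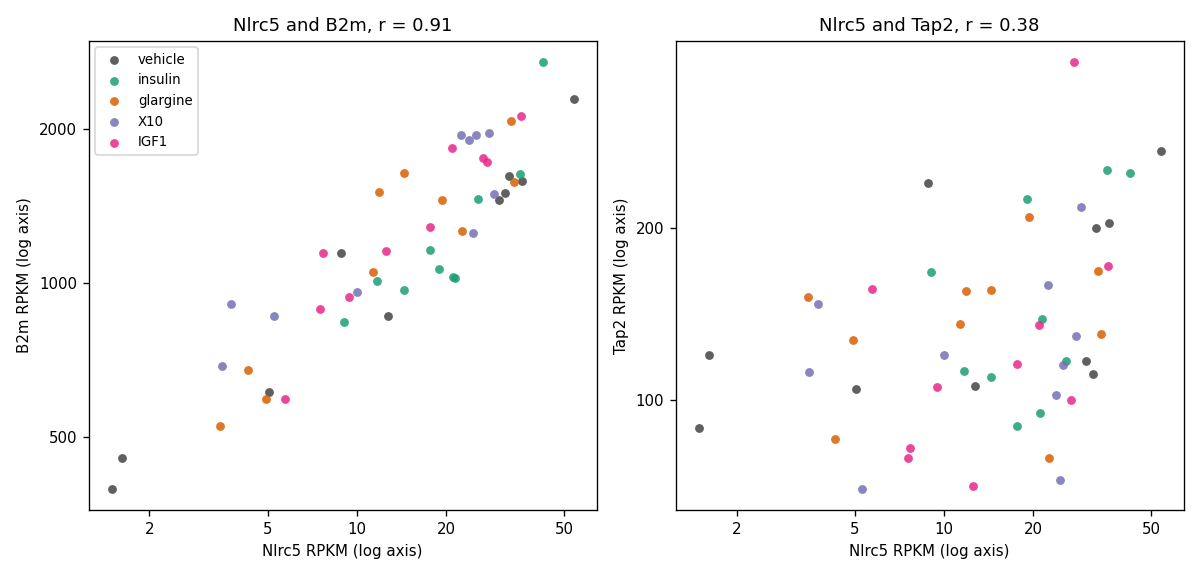
Nlrc5 RPKM against B2m RPKM (left) and Tap2 RPKM (right), both axes logarithmic, in 50 tumors coloured by treatment. B2m follows Nlrc5 closely (r = 0.91) with the tumors of each treatment spread along the line, while Tap2 is scattered (r = 0.38).

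The pattern among the other members was graded, was read after the values were seen and carries no test. With Cd274 left out, Nlrc5 and B2m stood farthest from Tap2 and Tapbp, with r of 0.29 to 0.40 over those 4 pairs. H2-K1 and H2-D1 lay between. Their r was 0.80 to 0.85 with Tap1, Psmb8 and Psmb9, much like that with Nlrc5 (0.84 and 0.83), and 0.56 to 0.63 with Tap2 and Tapbp. Within Tap1, Tap2, Tapbp, Psmb8 and Psmb9 r was 0.67 to 0.95 over 10 pairs, lowest for Tapbp. In Untreated_174, Nlrc5 (1.62 RPKM) and B2m (455 RPKM) were second lowest of the 50 tumors and Tapbp (853 RPKM) second highest, while H2-D1 (2961 RPKM, median 3003) and Tap2 (119.9 RPKM, median 123.6) were near their medians and Tap1 (12.9 RPKM, median 17.9) was below. Without that tumor, r of Nlrc5 and Tapbp was 0.45, and without Untreated_186 it was 0.23. Untreated_174 had the highest epithelial sum (10779 RPKM) and the second lowest T and NK cell sum (20.1 RPKM), and the part of these in its levels was not tested.

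Cd274 stood apart from the antigen presentation genes. Its 9 correlations with the other members were 0.20 to 0.35, of which 6 had an adjusted p under 0.05, while the 36 pairs without Cd274 had a median r of 0.79 and all 36 were under 0.05 (permutation test). It correlated least with B2m (r = 0.20, rho 0.21, adjusted p = 0.171, 0.33 without the 2 farthest tumors) and most with H2-D1 (r = 0.35, rho 0.34, adjusted p = 0.0160). Tumor insulin_18, the tumor with the highest Cd274 level (7.82 RPKM), had H2-K1 and Nlrc5 levels of 853 and 14.4 RPKM, near the medians of 832 and 18.3.

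**Figure D4:**
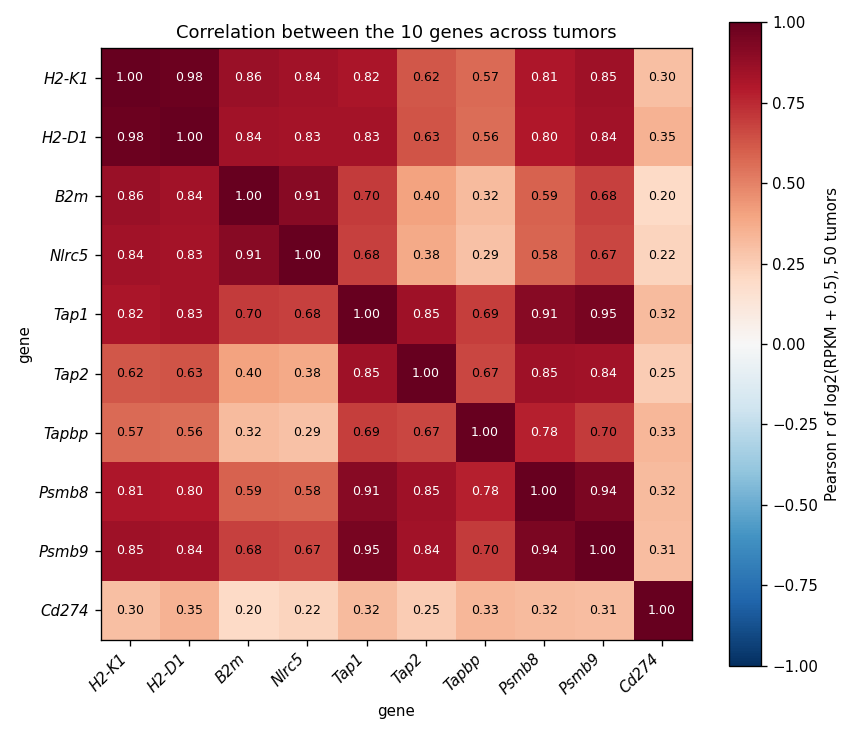
Pearson r of log2(RPKM + 0.5) between the 10 genes over 50 tumors. The heavy and light chains and Nlrc5 have 0.83 to 0.98 with each other, H2-K1 and H2-D1 have 0.80 to 0.85 with Tap1, Psmb8 and Psmb9 as well, Nlrc5 and B2m have 0.29 to 0.40 with Tap2 and Tapbp, and Cd274 has 0.20 to 0.35 with every other gene.

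The members were then set against marker and response lists measured in the same tumors, 70 relations in all. All 10 correlated with the mean level of the pan-leukocyte list (r 0.35 to 0.75, median 0.64) and of the T and NK cell list (0.38 to 0.82, median 0.73), each with an adjusted p under 0.05 (permutation test). The members that passed with any list were those with r of at least 0.3. Of all tested genes outside the list, 17.6% reached this r with the pan-leukocyte list and 17.2% with the T and NK cell list. Psmb9 was highest with both, at 0.75 and 0.82. With macrophage genes 8 of 10 passed (median 0.53), where 19.0% of all tested genes reached the same r, and the exceptions were Tapbp (r = 0.29, rho 0.27, adjusted p = 0.0568 by permutation test, but 0.44 with values centred within groups and 0.35 without the 2 farthest tumors) and Cd274 (r = -0.02, rho -0.03, adjusted p = 0.899). None of the 10 passed with the mammary epithelium list (-0.26 to 0.28, 9.16% of all genes reaching 0.3) or with the mesenchyme and stroma list (-0.04 to 0.14, 7.67%).

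Among response lists, all 10 members correlated with interferon-gamma response genes such as Gbp2 and Cxcl9 (median 0.71) and all 10 with type I interferon response genes such as Isg15 and Ifit1 (median 0.60), where 14.6% and 8.58% of all tested genes reached r of 0.3. With rho 9 of 10 passed for each, all but Cd274. Tap1 was highest with both, at 0.90 (rho 0.89) and 0.80 (rho 0.78). Nlrc5 and B2m had 0.68 with the interferon-gamma list (rho 0.70 and 0.67) but 0.38 and 0.42 with the type I list (rho 0.39 and 0.44), and 0.29 and 0.33 with the type I list without the 2 farthest tumors. The interferon lists share much of their variation (r = 0.87), as do the interferon-gamma and the T and NK cell lists (r = 0.77).

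**Figure D5:**
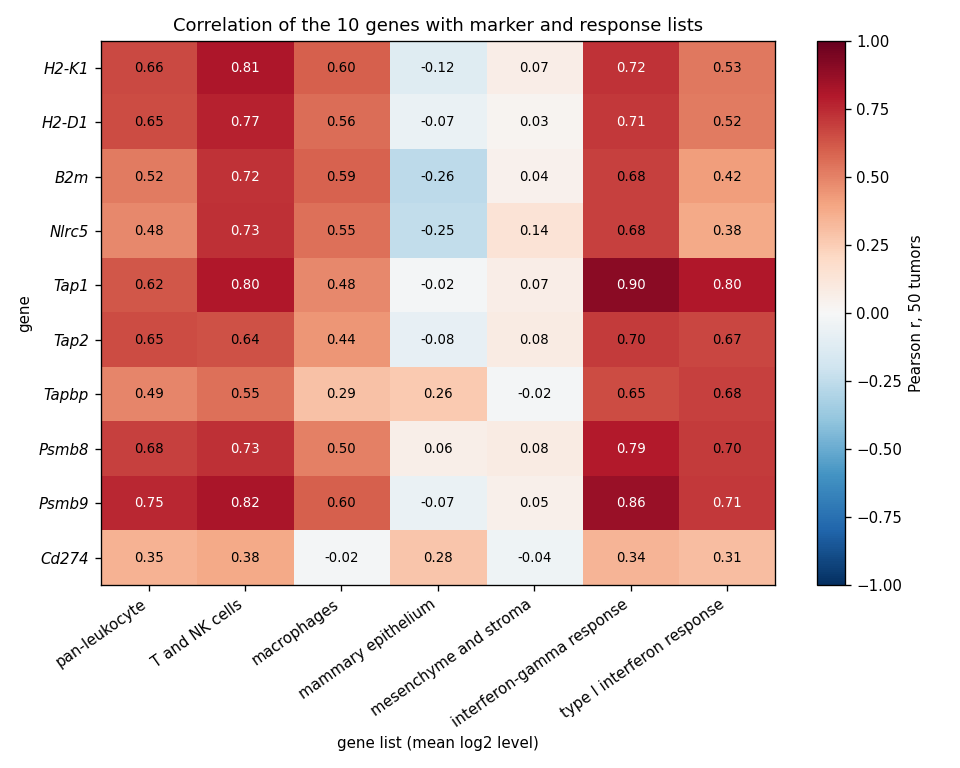
Pearson r over 50 tumors between each gene and the mean log2(RPKM + 0.5) of 7 gene lists. Pan-leukocyte, T and NK cell and interferon lists are positive for all 10 genes, the macrophage list for all but Cd274 (-0.02), while epithelial and mesenchymal lists lie between -0.26 and 0.28.

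How much of the shared variation goes with a marker or response list was described by removing the list's mean from every member with a linear fit. List means are RNA levels and not cell counts. The T and NK cell and interferon-gamma response lists vary together (r = 0.77), so that their parts cannot be told apart. After removal of the pan-leukocyte mean the median r over the 45 pairs was 0.56 and after removal of the macrophage mean 0.58, each with all 45 positive. After removal of the T and NK cell mean it was 0.30 with 37 positive, and after removal of the interferon-gamma response mean it was 0.26 with 39 positive. After removal of the epithelial mean it was 0.72. With the T and NK cell mean removed, r remained 0.95 for H2-K1 and H2-D1, 0.87 for Tap1 and Psmb9 and 0.80 for Nlrc5 and B2m, whereas that of Nlrc5 and Tap2 was -0.15.

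The 10 tested genes with the highest mean correlation with the members, the members themselves left out, were mostly class I genes of the same chromosome. They were C920025E04Rik (mean r 0.79 over 50 tumors), H2-K2 (0.78), H2-T23 (0.77), H2-Q2 (0.77), H2-Q4 (0.76), Gm10499, H2-Q6, H2-Q1 and H2-Q7 (each 0.75) and H2-Q5 (0.74). All 10 lie on chromosome 17, and C920025E04Rik, H2-K2, Gm10499 and H2-Q5 are annotated as pseudogenes (H2-Q5 as a polymorphic one). Reads of such near-identical genes can be split between copies, so that their levels are uncertain. H2-T23, which encodes a non-classical class I heavy chain, had its highest r with Psmb9 (0.93), and H2-Q4 had its highest with H2-K1 (0.98).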

How the data were processed

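Poly-A selected RNA of 50 tumors was sequenced on the Ion Proton, 10 tumors per group. According to the submitters' processing notes and the methods of the study, the authors aligned reads to GRCm38 with TopHat2 2.0.10, realigned the reads left over with Bowtie2 in local mode and merged both. Gene counts came from HTSeq 0.6.1 with default options. The RPKM table, in which counts are scaled by gene length and library size, is credited in the methods to DEXSeq, and whether it rests on the HTSeq counts is not stated. The authors deposited these RPKM values, with no log transformation. They are not counts, so that the count test the authors ran (DESeq2) was not repeated. Library sizes were estimated from the steps between low values, of which at least 94.8% per tumor came out whole. Reads in overlaps can be lost, and Tapbp overlaps Zbtb22 on the same strand.

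After removal of genes whose mean RPKM was below 0.5, log2(RPKM + 0.5) was fitted with limma (version 3.58.1, R version 4.3.3), with all 5 groups and an intensity trend, and Benjamini-Hochberg adjustment over 16733 genes. This scale understates fold changes of low genes. On simulated data for X10 against vehicle, 200 genes drawn at random from the 16733 were changed. Of genes changed by 0.5 on the log2 scale 14% were recovered, of those changed by 1 73% and of those changed by 2 96%. The median SD of log2 was 0.42 over all tested genes and 0.68 over the members, so that these shares do not hold for the members. Correlations were tested with two-sided permutation tests (100000 resamples, Python 3.11.15, numpy 2.4.6, scipy 1.17.1), and intervals of r were Fisher intervals. The members and all gene lists were chosen with earlier results of these data known. Named genes were all 10 members, the genes of a list that passed the threshold (none did), highly expressed list genes, the partners of the ratios and the 10 nearest genes. Other genes and the sets of members were named after their values were seen. Alternatives were pseudocounts of 0.1 and 1, other filters, quantile and upper quartile normalization, no trend, only the compared groups, marker lists as covariates and, added after seeing the data, library size as a covariate, residuals on marker lists and each tumor left out.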

Additional observations from a re-analysis of the deposited data

Results flagged for a closer look

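Each member and each of the 3 proteasome ratios was searched for a tumor far from the other 9 of its group. Of 65 groups searched 2 had such a tumor, and about 1 in 20 groups would by chance. H2-K1 in Untreated_161 was the lowest of its group at 166 RPKM, with the next vehicle tumor at 669 RPKM, a gap of 0.53 of the group's whole range on the log2 scale. Tap2 in IGF1_158 was the highest of its group at 391 RPKM, with the next at 172 RPKM, a gap of 0.48 of the range.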

How the results depend on the processing

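No member was called in any comparison under any alternative, and the smallest adjusted p reached was 0.124, for Tapbp in X10 against vehicle with the pan-leukocyte mean as a covariate (limma). With each of the 50 tumors left out in turn the smallest adjusted p of a member was 0.203. Of the 80 log2 differences of members, 31 took the other sign under at least 1 alternative (25 with a tumor left out, 23 under the others), and all 31 were at most 0.25 in size. The median r between members was 0.30 in place of 0.68 after removal of the T and NK cell mean, and 0.66 to 0.70 with each tumor left out. The median r of members with the mammary epithelium list, -0.07 by Pearson's r, was 0.03 by Spearman's rho, and the cause was not tested. No paired analysis was possible because the groups share no replicate numbers, each number being that of a single mouse. With 10 tumors per group the SE of a member's log2 difference from vehicle was 0.20 (Tapbp) to 0.51 (Nlrc5). After adjustment over all genes, even a 2-fold difference of most members could therefore be missed.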

Other observations

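Genes nearest to single members were listed after the values were seen. Those with the highest r with Cd274 over 50 tumors were Il1rn (0.72), Irg1 (0.66), Itgax (0.65), Pdcd1lg2 (0.65) and Il7r (0.64), of which Pdcd1lg2 encodes PD-L2, the other ligand of PD-1. These 5 are genes of the immune system, although Cd274 had r = -0.02 with the macrophage list. For Tapbp the nearest were Parp9 (0.81) and Tapbpl (0.81), a relative of tapasin.

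The spacing of X2 and Y letters found in H2-K1, H2-D1 and B2m was present in the promoters of 26 genes by symbol, of which 20 were tested. Their median r with Nlrc5 was -0.01, against 0.06 over all tested genes. Of the 17 tested genes that are no members 1 had r over 0.5, the class I gene H2-M3 (0.55), and the share over all tested genes was 4.28%. Xpnpep1, with the same spacing, had r = -0.54.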
